A study of Mus musculus with 6 samples.

Results

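The genes described are 10 genes of the adipocyte lineage: the transcription factors Zfp423, Cebpb, Cebpa, Pparg and Ppard, the fatty acid carriers Fabp4 and Fabp5, the lipase Lpl, the lipid droplet coat gene Plin2 and the adipokine gene Adipoq. They were taken by gene name from the count tables, and all 10 of 10 were found among 25722 listed genes. RNA was sequenced from cells labelled as bone marrow mesenchymal stromal cells (BMSCs, BM-MSCs in the labels) of wild-type C57BL/6 mice, which are the cells of marrow from tibia and femur that stick to plastic in culture. There were 3 control libraries, from cells given the solvent DMSO, and 3 libraries from cells given all-trans retinoic acid (RA). The labels give 1 μM RA and 48 h, while the methods of the study name a lower dose and a shorter time. All cultures received serum, a ROCK inhibitor and low oxygen, and no fat-inducing cocktail is named for them. The labels speak of 2 biological replicates but list 3 libraries per group. It is therefore not known how many separate cultures or mice stand behind these libraries. The p-values measure the spread between libraries, and n = 3 counts libraries. Controls 1 and 3 were the most alike pair within a group, with a chi-square of 4.88 once divided by its degrees of freedom. RA 1 and RA 2 had 30.6 on this measure, and the remaining pairs within a group had 84.6 to 91.8. Whether controls 1 and 3 came from separate cultures was not tested. The age and sex of the mice are not in the labels.

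Adipocytes arise from stromal progenitors through a cascade of transcription factors. Zfp423 marks and maintains committed preadipocytes, C/EBPβ acts early after induction, and C/EBPα and PPARγ then switch each other on and drive the fat cell genes, among them those for FABP4, LPL and adiponectin. RA, acting through retinoic acid receptors, is known to block this programme when present early, and FABP5 is known to carry RA to PPARδ, as CRABP2 carries it to the retinoic acid receptors. Several of these genes are also used outside fat cells: macrophages express Lpl, Plin2, Fabp4, Fabp5, Cebpa, Cebpb and Pparg, so their RNA does not by itself mark the adipocyte lineage.

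The regulatory sequence in front of 3 members shows how differently these genes are built. RefSeq windows on GRCm38.p6, the patch release of the build that the submitters' processing notes call mm10, were found for 7 of 10 members. They run from 250 bases before to 50 after an annotated start, with several starts for Pparg and Zfp423, 10 windows in all. Below are the 250 bases before the start of Cebpa (chr7:35119043-35119292, plus strand), of the third Pparg start, the one of the fat-cell-enriched isoform PPARγ2 (chr6:115421816-115422065, plus strand), and of Adipoq (chr16:23146286-23146535, plus strand), shown because Cebpa had the widest range of levels on the log scale among the tested members, Pparg is the master regulator of the lineage, and Adipoq is the member closest to the detection limit. Capitals mark the letters TATAAA (a core promoter element), AGGTCA (the half-site of nuclear receptors), TTGNNNAA (a loose C/EBP site) and CCAAT (a general promoter element), each sought on both strands, and matches of the last pair overlap in places.
Cebpa: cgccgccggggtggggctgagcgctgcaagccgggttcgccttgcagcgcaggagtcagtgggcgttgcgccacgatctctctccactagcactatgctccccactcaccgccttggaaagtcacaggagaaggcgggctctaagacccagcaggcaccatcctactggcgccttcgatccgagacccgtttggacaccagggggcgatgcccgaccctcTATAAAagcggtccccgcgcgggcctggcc
Pparg (start of PPARγ2): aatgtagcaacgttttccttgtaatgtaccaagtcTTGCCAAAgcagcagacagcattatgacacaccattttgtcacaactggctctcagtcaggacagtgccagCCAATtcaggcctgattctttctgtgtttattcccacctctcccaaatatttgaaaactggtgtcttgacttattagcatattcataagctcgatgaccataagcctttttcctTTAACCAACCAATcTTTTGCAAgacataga
Adipoq: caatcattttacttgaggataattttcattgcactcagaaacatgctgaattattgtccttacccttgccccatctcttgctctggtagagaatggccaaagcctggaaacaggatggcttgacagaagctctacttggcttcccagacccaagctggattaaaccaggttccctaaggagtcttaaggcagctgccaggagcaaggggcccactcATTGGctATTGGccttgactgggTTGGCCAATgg

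The Cebpa window had a GC content of 67.3% and 29 CpG dinucleotides, and the third Pparg window had 40.3% and 2, whereas the first Pparg window had 80.3% and 44. The Adipoq window had 0 CpG. Over all 32851 windows of 300 bases, the medians were 52.7% and 7. The match to TATAAA in front of Cebpa began 30 bases before its start. Matches to TTGNNNAA were in 4 of the 10 members' windows and in 36.7% of all windows, matches to AGGTCA in 4 of 10 and 16.3%, CCAAT in 5 of 10 and 37.4%, and TATAAA in 3 of 10 and 13.6%. Direct repeats of AGGTCA with 1, 2 or 5 bases between the copies, the textbook forms bound by PPAR or RA receptors with RXR, were in 0 of the 10 windows with these exact letters, and in 0.040%, 0.0091% and 0.0091% of all windows, so that 10 windows say nothing about them. Such a match describes letters only. The counts are per gene, so they do not tell which Pparg start the reads came from.

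The totals ran from 14737636 to 18511905 counts per library, and levels are given in CPM, the count divided by the size of its library. Library sizes were scaled by TMM, a method that corrects the totals for composition, and 3 counts were then worth 0.160 to 0.210 CPM. The libraries fell into a pair of sets that crossed the treatment: control 2, RA 1 and RA 2 formed library set 1, and control 1, control 3 and RA 3 formed library set 2. This split carried 57.2% of the variance of the 1000 genes that varied most, as their leading principal component. The labels name no batch that matches these sets. As a check of the labelled cell type, all 15 of 15 macrophage markers were tested and none was at 0 in a library. Their summed level was 21555 to 23732 CPM in controls and 20928 to 22368 CPM after RA. Of 12 stromal markers 10 were tested, with a summed level of 3322 to 6418 CPM in controls and 2500 to 5156 CPM after RA. Thy1 (0 to 7 counts) and Nt5e (2 to 21 counts) were below the filter. The 10 tested ones stood between the 58.4 (Vcam1) and 99.3 (Itgb1) percentile of mean level, with Col1a1 at 99.1. The macrophage markers stood between 81.8 (Mertk) and 99.96 (Lyz2). The macrophage sum was above the stromal sum in every library, and stromal RNA was present too. These values go against a label of stromal cells alone. Sums over lists of 15 and 12 genes do not measure shares of cells, and BMSC is used here as the label only. Of 8 mature adipocyte markers only Lipe was tested (30.5 to 47.8 CPM), and Plin1, Lep and Retn had 0 or 1 count in every library. Defining markers of mature fat cells were thus at or near 0, and the part of the high macrophage marker levels in the members' values was not tested. In bulk RNA, fewer cells of a type and less RNA per cell cannot be told apart.

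The members covered a wide range of levels. Per length of all exons of a gene, Lpl was the highest with a mean RPKM of 134 over the 6 libraries (range 106 to 149, where RPKM is reads scaled to gene length and library total), followed by Cebpb with 105 (51.5 to 135), Cebpa with 53.9 (14.2 to 81.1), Plin2 with 50.1 (40.5 to 63.0) and Fabp5 with 35.3 (24.9 to 47.5). The next neighbours in this order had ranges that overlapped down to Fabp5. Far below came Ppard with 5.03 (3.40 to 6.57) and Pparg with 4.82 (3.90 to 5.79), which were in either order in 3 of 6 libraries each. Fabp4 had 1.28 (0.746 to 1.75), Zfp423 0.549 (0.436 to 0.760) and Adipoq 0.188 (0.0403 to 0.395). The gaps between Fabp5 and Ppard, between Pparg and Fabp4 and between Zfp423 and Adipoq were clear of the ranges, whereas those of Fabp4 and Zfp423 overlapped. Lpl thus stood above 97.8% of the tested genes and Cebpb above 97.1% in level per length, whereas Pparg stood at the 49.0 percentile and Zfp423 at the 12.9 percentile. With the length of the principal transcript in its place, a choice made after seeing the data, Fabp5 moved from the fifth to the second place with an RPKM of 128, Lpl had 341 and Fabp4 had 6.41, and the ranges of Ppard, Pparg and Fabp4 then overlapped from one to the next.

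**Figure D1:**
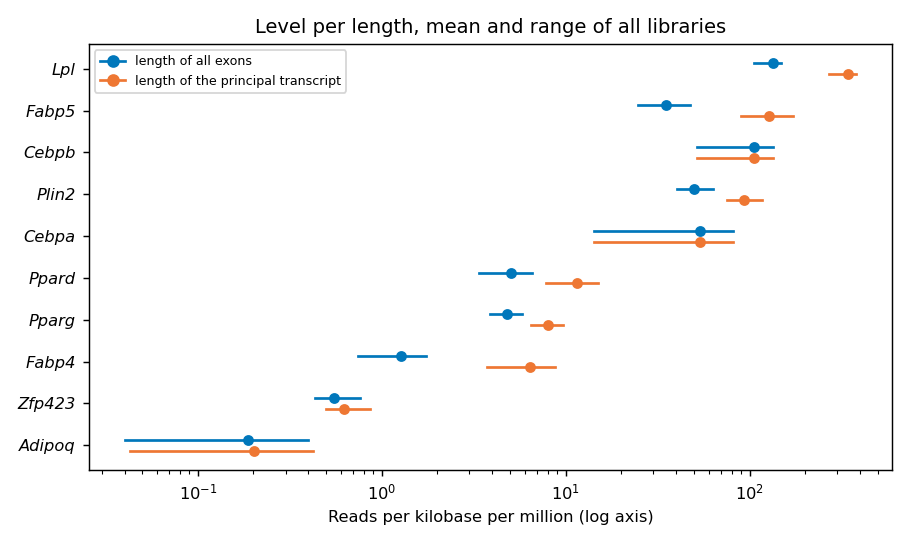
Level of each member per length (RPKM, log axis), with points for the mean and lines from the lowest to the highest of 6 libraries, for the length of all exons (blue) and of the principal transcript (orange). Lpl was first and Adipoq last under both lengths, while Fabp5 changed place.

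RA treatment was set against DMSO to ask how the cells labelled as BMSCs respond to RA, and the lineage genes showed no difference that passed the test. Of the 9 members tested, 0 were called in edgeR's quasi-likelihood test at an adjusted p under 0.05 and at least 1.5-fold, against 6 of 13842 genes (0.0433%). Of the members, 0 also had an unadjusted p under 0.05 (5.25% of all genes). DESeq2, run without that filter, called 0 (0.483% of the 25243 genes to which it gave an adjusted p). The groups overlapped for every tested member, while they were apart for 12.6% of all genes. Adjusted p ran from 0.799 to 0.991. The log2 fold changes lay between -0.68 (Cebpa) and 0.23 (Plin2), with a median of -0.22 beside -0.018 for all genes, and 6 were below 0 and 3 above. Of the 10 members, 9 had group means that differed by less than the larger group SD, the exception being Pparg. The precision sets a limit to this: the standard error was 0.17 to 0.57 on the log2 scale, and in simulated counts with the spread of these groups the test recovered 0% of 200 genes changed 2-fold and 89% of those changed 4-fold, with 18 false calls in the latter. An exact permutation test of 3 against 3 libraries cannot go below p = 0.10.

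**Figure D2:**
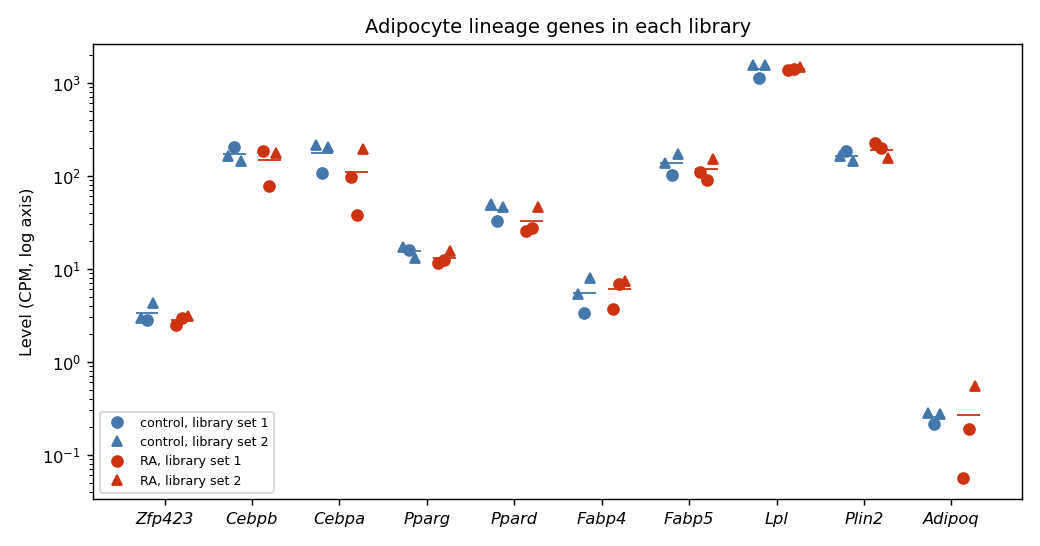
Level of each member in each library (CPM, log axis), in order of role from the commitment factor Zfp423 to the adipokine Adipoq, with controls in blue, RA in red, circles for library set 1, triangles for library set 2 and bars for the group means. In every tested member the red and blue points overlap, and for Cebpa and Ppard the circles lie below the triangles.

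Zfp423, the zinc finger factor of preadipocytes (ENSMUSG00000045333, chr8:87661810-87959595, minus strand), was low. It had 2.94, 2.82 and 4.26 CPM in controls 1 to 3 and 2.45, 2.92 and 3.07 CPM in RA 1 to 3. Control 3 was the highest library and the other 5 lay close together, so the groups overlapped. The means were 3.34 ± 0.80 and 2.81 ± 0.33 CPM (SD, n = 3 each), a log2 fold change of -0.25 ± 0.26 (SE, edgeR adjusted p = 0.826), and the 95% interval of the fold reached from 0.551 to 1.29. These levels rest on 42 to 62 counts per library.

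Cebpb, the early C/EBP factor (ENSMUSG00000056501, chr2:167688915-167690418, plus strand), had 164, 203 and 145 CPM in the controls and 186, 77.4 and 175 CPM after RA. RA 2 was far below the rest, while the other RA libraries lay inside the range of the controls. The means were 171 ± 29.5 and 146 ± 59.8 CPM (SD, n = 3), and the log2 fold change was -0.22 ± 0.33 (SE, edgeR adjusted p = 0.868), with a fold interval from 0.495 to 1.48. Without RA 2 the log2 fold change was 0.083. An exon stretch of 312 bases is shared with Tmem189 on the other strand, which had 1848 to 2581 counts, and whether the counting used strand is not given in the sources used here.

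Cebpa, the late C/EBP factor that maintains the fat cell state and also drives myeloid cells (ENSMUSG00000034957, chr7:35119293-35121928, plus strand), had the widest range among the tested members on the log scale. Its levels were 214, 107 and 203 CPM in controls and 96.8, 37.5 and 194 CPM after RA. Control 2, RA 1 and RA 2 were low and the other 3 libraries, one of them RA-treated, were close together, so the main split ran along the library sets. Within each set the mean log2 level was also lower after RA, by -0.83 in set 1 and -0.10 in set 2, and 35.0% of all genes were lower within both. The coefficient of variation was 33.6% in controls and 72.1% after RA. The means of 175 ± 58.8 and 109 ± 78.9 CPM (SD, n = 3) gave the most negative log2 fold change of the members, -0.68 ± 0.57 (SE, edgeR adjusted p = 0.803), with a fold interval from 0.244 to 1.61. Leaving out one library at a time moved it from -1.38 (without RA 3) to -0.27 (without RA 2), without a call in either. The ratio of Cebpa to Cebpb counts, which does not depend on scaling, was 1.31, 0.528 and 1.40 in controls 1 to 3 and 0.521, 0.485 and 1.11 in RA 1 to 3, and it too was low in set 1 and high in set 2.

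Pparg, the nuclear receptor that is needed for fat cell formation (ENSMUSG00000000440, chr6:115360951-115490399, plus strand), had 17.1, 15.8 and 13.1 CPM in controls and 11.5, 12.4 and 15.4 CPM after RA. RA 1 and RA 2 lay below all controls, and RA 3 lay between controls 2 and 3. The means were 15.3 ± 2.06 and 13.1 ± 2.05 CPM (SD, n = 3), so Pparg was the one member whose means differed by slightly more than the larger of its group SDs. The log2 fold change was -0.23 ± 0.19 (SE, edgeR adjusted p = 0.803), and the fold interval ran from 0.629 to 1.16.

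Ppard, the widely expressed relative of Pparg and the receptor served by FABP5 (ENSMUSG00000002250, chr17:28232700-28301474, plus strand), had 49.4, 32.8 and 46.0 CPM in controls and 25.5, 27.0 and 45.9 CPM after RA. RA 1 and RA 2 were the lowest and control 2 the next, while RA 3 was level with controls 1 and 3. The means were 42.7 ± 8.75 and 32.8 ± 11.4 CPM (SD, n = 3), and the log2 fold change was -0.38 ± 0.27 (SE, edgeR adjusted p = 0.799), with a fold interval from 0.488 to 1.21. Pparg had fewer counts than Ppard in every library, with ratios of 0.346, 0.483 and 0.284 in controls and 0.451, 0.460 and 0.336 after RA.

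Fabp4, a fatty acid carrier of fat cells and macrophages (ENSMUSG00000062515, chr3:10204088-10208576, minus strand), was low for a gene that dominates mature fat cells. It had 5.32, 3.35 and 7.84 CPM in controls and 3.67, 6.85 and 7.44 CPM after RA, from 63 to 114 counts per library. Both groups ran from about the same low to about the same high level. The log2 fold change was 0.12 ± 0.40 (SE, edgeR adjusted p = 0.943), and the fold interval from 0.565 to 2.10 was the widest after that of Cebpa on the log2 scale.

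Fabp5, its epidermal relative (ENSMUSG00000027533, chr3:10012548-10016607, plus strand), had 137, 101 and 169 CPM in controls and 108, 88.8 and 152 CPM after RA. The ordering followed the library sets, with control 2, RA 1 and RA 2 below the others. The means were 136 ± 34.4 and 116 ± 32.4 CPM (SD, n = 3) and the log2 fold change was -0.22 ± 0.26 (SE, edgeR adjusted p = 0.838). Fabp5 reads outnumbered those of Fabp4 by 25.8, 30.1 and 21.6 to 1 in controls and by 29.5, 12.96 and 20.4 to 1 after RA. The other RA carrier behaved differently in its ratio to Fabp5: Crabp2 had 0.0082, 0.012 and 0.011 counts per Fabp5 count in controls and 0.093, 0.080 and 0.025 after RA, so that every RA library was above every control in this ratio while Crabp2 stayed far below Fabp5 in counts. Both are counts per gene, not per length.

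Lpl, the enzyme that frees fatty acids from lipoproteins and is made by fat cells and macrophages alike (ENSMUSG00000015568, chr8:68880491-68907448, plus strand), was the most abundant member and the one with the smallest difference between the groups on the log2 scale. Its levels were 1558, 1113 and 1530.1 CPM in controls and 1358, 1409.8 and 1461 CPM after RA, where all 3 RA libraries lay between control 2 and the other controls. The means were 1400.5 ± 249 and 1409.6 ± 51.7 CPM (SD, n = 3). The log2 fold change was 0.0093 ± 0.17 (SE, edgeR adjusted p = 0.991), with a fold interval from 0.760 to 1.33, the narrowest interval on the log2 scale among the members.

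Plin2, the coat protein of small lipid droplets in many cells (ENSMUSG00000028494, chr4:86648386-86670060, minus strand), had 161, 182 and 142 CPM in controls and 221, 196 and 154 CPM after RA. RA 1 and RA 2 were above all controls, and RA 3 lay within their range. The means were 162 ± 19.8 and 190.3 ± 34.0 CPM (SD, n = 3), and the log2 fold change was 0.23 ± 0.17 (SE, edgeR adjusted p = 0.800), with a fold interval from 0.886 to 1.56. It was the highest log2 fold change of the members tested.

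Adipoq, the gene of adiponectin and a marker of differentiated fat cells and of fat-primed marrow stromal cells (ENSMUSG00000022878, chr16:23146536-23158028, plus strand), was close to the detection limit and below the filter. It had 4 counts in each control and 1, 3 and 8 counts in RA 1 to 3. The sums were 12 and 12 counts, which gave a ratio of RA to control of 0.984 with an exact 95% counting interval from 0.404 to 2.39. Such an interval covers counting error only, since PCR copies are not independent molecules, and differences inside it were not detectable at this depth.

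**Figure D3:**
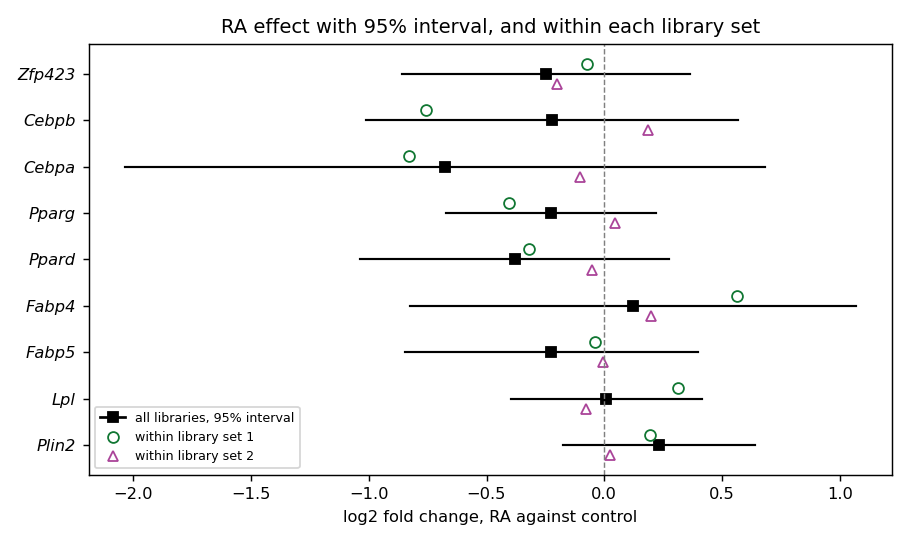
Log2 fold change of RA against control for the 9 tested members, with squares and lines for the edgeR estimate and its 95% interval over all libraries, and open symbols for the difference of mean log2 CPM within library set 1 (circles) and set 2 (triangles). Every interval crosses 0, and for Pparg, Cebpb and Lpl the open symbols lie on opposite sides of 0.

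Within the library sets the members went different ways. The members whose RA libraries were lower within both sets were Ppard, Cebpa, Fabp5 and Zfp423, 4 of 9, where 35.0% of all genes did the same. Fabp4 and Plin2 were higher within both, 2 of 9 against 30.9% of all genes. For Pparg the difference was -0.40 on the log2 scale in set 1 and 0.045 in set 2, for Cebpb -0.76 and 0.19, and for Lpl 0.31 and -0.080. No spread can be given within a set for the group that has 1 library there, since set 1 holds 1 control and set 2 holds 1 RA library. With the set as a covariate, edgeR called 213 of 13842 genes (1.54%) and 0 members, whose lowest adjusted p was then 0.423 (Ppard). In that fit Ppard stood at -0.19 ± 0.10, Cebpa at -0.38 ± 0.31, Fabp5 at -0.024 ± 0.12, Plin2 at 0.11 ± 0.096 and Fabp4 at 0.40 ± 0.30 (log2 fold change ± SE).

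The members differed more by library set than by treatment in 7 of 9 cases, as did 68.7% of all genes. The sets were drawn from these data, so this is a description. Cebpa was lower in set 1 by a log2 difference of -1.48, Ppard by -0.73, Fabp5 by -0.62, Fabp4 by -0.61, Zfp423 by -0.30 and Lpl by -0.24, while Plin2 was higher by 0.38. The sets did not overlap for 6 of 9 members, 5 of them lower in set 1 (Cebpa, Ppard, Fabp5, Zfp423 and Lpl) and 1 higher (Plin2), where 47.7% of all genes had sets that did not overlap, 24.4% lower and 23.4% higher. The stromal markers had a median difference of 0.68 and the macrophage markers of -0.46 between set 1 and set 2 on the log2 scale. By treatment, the stromal markers had a median log2 fold change of -0.12, which was -0.37 with the set as covariate, and 9 of the 10 tested were lower after RA within both sets (35.0% of all genes). The macrophage markers had -0.12 and -0.020, and within both sets 4 of 15 were lower (35.0% of all genes) and 6 were higher (30.9%). Both marker lists thus moved with the sets in which the members differed, and their part was not tested.

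**Figure D4:**
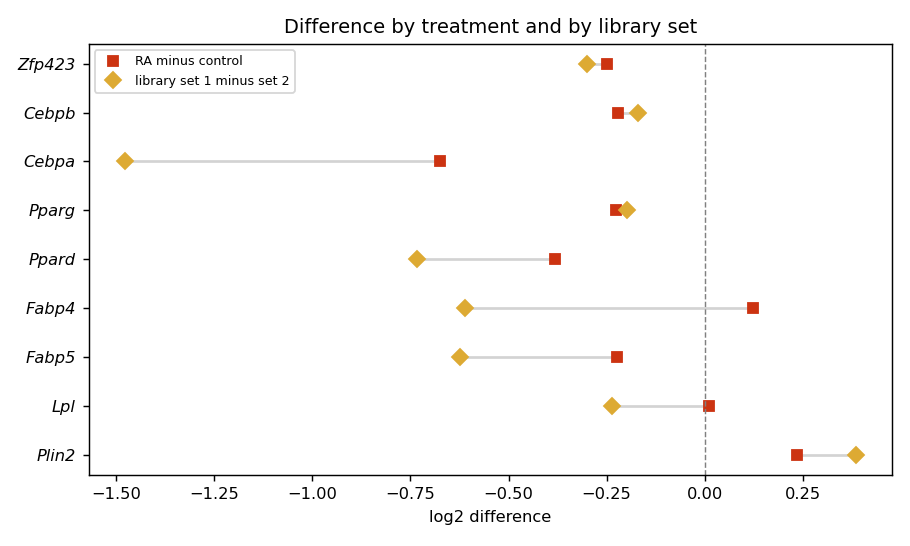
Log2 difference by treatment (red squares, RA minus control) and by library set (yellow diamonds, set 1 minus set 2) for the 9 tested members. The diamond is farther from 0 than the square for 7 of them, most of all for Cebpa at -1.48 against -0.68.

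The rest of the programme was read from 13 related lists with 146 further genes, of which 118 were tested. In the main test 0 of the 118 were called (0.0433% of all genes), 23 had an unadjusted p under 0.05 (13 higher and 10 lower, against 2.89% and 2.36% of all genes), and DESeq2 called 6 (Rarb, Crabp2, Lepr, Acsl4, Ly6a and Plin4). Of the 15 tested factors that promote fat cell formation, 11 were lower (7293 of all 13842 genes) and 4 higher. The median log2 fold change was -0.20 (-0.17 with the library set as covariate). Within both library sets 9 were lower (35.0% of all genes) and 2 higher (30.9%). The groups did not overlap for 1 higher and 4 lower factors (12.6% of all genes in either direction). Klf9, a Krüppel-like factor known to raise Pparg, had 9.53, 14.1 and 11.3 CPM in controls and 22.1, 19.8 and 19.1 CPM after RA, and every RA library was above every control (log2 fold change 0.80 ± 0.19, SE, edgeR adjusted p = 0.426). Klf4, which raises Cebpb early on, had 10.8, 14.8 and 11.4 CPM in controls and 8.45, 8.43 and 8.12 CPM after RA. Among 13 tested inhibitors the median was -0.036 (0.044 with the library set as covariate), with Sox9 at -1.58 ± 0.37 (0.426) and Wnt10b at 0.93 ± 0.30 (0.795), log2 fold change ± SE and edgeR adjusted p.

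The 8 tested PPAR partners and cofactors, which include the RXR receptors that pair with Pparg and Ppard, had a median of -0.14, which turned to 0.063 with the library set as covariate. The 12 tested PPAR target genes had a median of 0.043 (0.074 with the covariate) and 3 of them did not overlap between groups, all higher after RA (5.71% of all genes). Pdk4, a brake on glucose oxidation, had 34.2, 60.8 and 40.7 CPM in controls and 104, 94.3 and 66.8 CPM after RA (log2 fold change 0.96 ± 0.26, edgeR adjusted p = 0.611, and 0.0150 with the library set as covariate). Cd36, the fatty acid transporter of fat cells and macrophages, had 626, 526 and 680 CPM in controls and 872, 909 and 829 CPM after RA (0.51 ± 0.14, edgeR adjusted p = 0.638). The partners of Lpl and genes of fatty acid uptake had a median of -0.084 over 9 tested (-0.093 with the covariate), and Acsl4, which activates long-chain fatty acids, had 114, 136 and 122 CPM in controls and 203, 215 and 168 CPM after RA (0.66 ± 0.14, edgeR adjusted p = 0.353). With the set as covariate its log2 fold change was 0.57 with an edgeR adjusted p of 0.0167, under the fold needed for a call, and DESeq2 called it (adjusted p = 0.0399).

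All 13 tested lipid droplet and triglyceride genes other than Plin2 had a log2 fold change below 0, with a median of -0.14 (-0.085 with the set as covariate), in a fit where 7293 of 13842 genes were below 0. Within both library sets 5 of the 13 were lower (35.0% of all genes) and 2 were higher (30.9%). Plin4, another droplet coat gene, had 7.70, 10.7 and 7.22 CPM in controls and 3.34, 2.60 and 0.955 CPM after RA, so the groups did not overlap (log2 fold change -1.88 ± 0.44, edgeR adjusted p = 0.426, and -2.24 with an adjusted p of 0.0105 with the set as covariate). Among the adipokines and their receptors 5 of 9 were tested, with a median of -0.21 (-0.074 with the set as covariate).

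The RA carriers and receptors, 4 of 5 tested, served as a check of the treatment and had a median log2 fold change of 1.33 (1.17 with the set as covariate). Rarb, a textbook RA target, had 0.280, 0.691 and 0.138 CPM in controls and 7.06, 5.96 and 4.50 CPM after RA (log2 fold change 3.90 ± 0.51, edgeR adjusted p = 0.156, and 0.00387 with the set as covariate). Since 3 counts were worth 0.210 CPM in control 1 and 0.206 CPM in control 3, the size of this change rests on controls near the detection limit. The log2 fold change of Rarb was 4.77 without control 2 and 3.53 without control 3. Crabp2 had 1.12, 1.17 and 1.93 CPM in controls and 10.1, 7.10 and 3.75 CPM after RA (2.31 ± 0.43, edgeR adjusted p = 0.294, 0.0618 with the set as covariate, and 0.000583 in DESeq2). Of 9 tested markers of adipocyte progenitors in marrow and fat, 7 were higher and 2 lower, with a median log2 fold change of 0.34 (0.22 with the set as covariate), and for 4 of the 9 the groups did not overlap (12.6% of all genes). Cd24a, with a log2 fold change of 1.35 ± 0.56, had groups that overlapped (edgeR adjusted p = 0.795), and its log2 fold change was 2.25 without control 2 and 0.99 without control 1. Lepr, the leptin receptor gene, had 7, 9 and 7 counts in controls and 45, 48 and 139 counts after RA (3.35 ± 0.61, edgeR adjusted p = 0.292, and 0.00644 with the set as covariate). Ly6a, the gene of the progenitor surface marker Sca-1, had 34.6, 34.1 and 39.5 CPM in controls and 20.3, 19.8 and 17.9 CPM after RA (-0.90 ± 0.13, edgeR adjusted p = 0.172, and 0.0152 with the set as covariate).

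**Figure D5:**
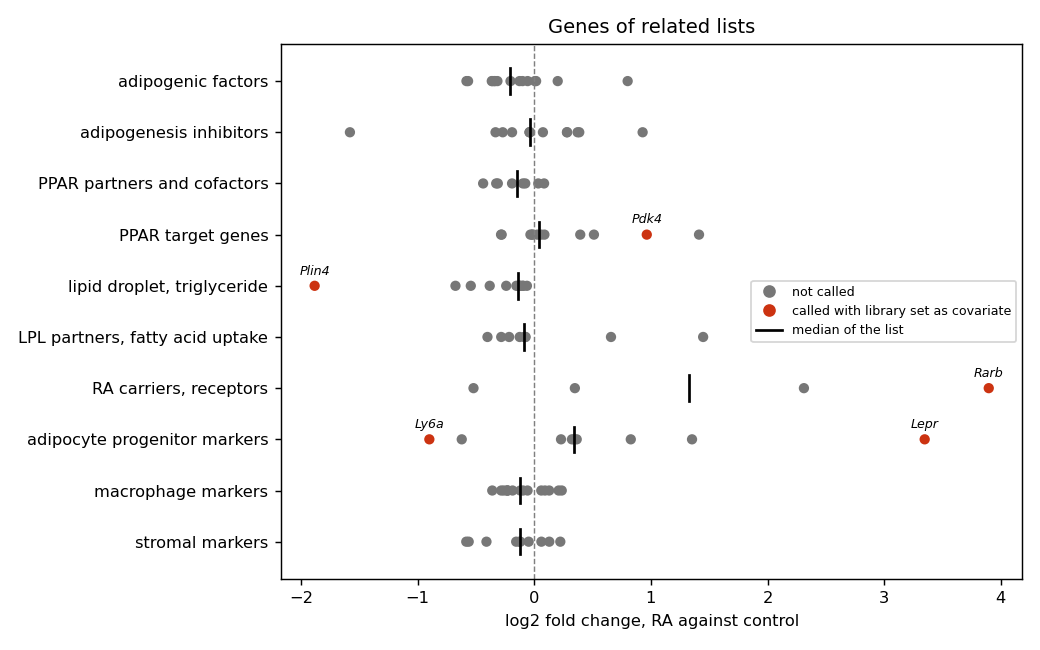
Log2 fold change of RA against control for the tested genes of 10 related lists, each point 1 gene and each black bar the median of the list, with red for the genes called once the library set was a covariate. Rarb at 3.90, Lepr at 3.35, Pdk4 at 0.96, Ly6a at -0.90 and Plin4 at -1.88 are the red points.

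The genes whose levels followed a member most closely over the 6 libraries were sought for the 7 tested members with a mean of at least 10 CPM, by the root mean square difference of log2 CPM after each gene's mean was taken off. For Pparg these were Kank3 (0.055), Psmg4 (0.059) and Sec24d (0.069), beside a median over all genes of 0.32. For Ppard they were Tec (0.043), Hexim1 (0.044) and Ttyh2 (0.052). For Cebpa they were 2410022M11Rik (0.13), C730034F03Rik (0.16) and Inafm1 (0.16), and for Cebpb they were Apc2 (0.095), Gm38340 (0.10) and Ier5l (0.12). The measure grows with a member's own spread, so it is not compared between members: the median over all genes was 0.91 for Cebpa and 0.53 for Cebpb. Fabp5 was followed by Phyhd1 (0.035), Ptgr2 (0.055) and Frs3 (0.059), Lpl by Evl (0.035), Zfp414 (0.045) and Polr2g (0.046), and Plin2 by Slc20a1 (0.030), Gm45902 (0.048) and Pla2g5 (0.048). No member was among the nearest 3 genes of another. With 6 libraries and 13842 genes, close matches are many, and they describe these libraries only.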

How the data were processed

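RNA of cells labelled as BMSCs was measured in 3 control (DMSO) and 3 RA libraries. The authors deposited the counts as 1 table per library, with the whole reads of each gene and no normalization. The submitters' processing notes name Bowtie2 2.2.3 and mm10, and the counting program, annotation and use of strand are not given in the sources used here. Of 25722 gene identifiers 25706 were found in GENCODE release 21 of the mouse (GRCm38), and 24 names that had turned into dates were restored.

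Groups and replicate numbers came from the labels. Counts were analysed in R 4.3.3 with edgeR 4.0.16 (TMM, filterByExpr, quasi-likelihood test, Benjamini-Hochberg adjustment over all 13842 genes kept), without covariates. A call needed an adjusted p under 0.05 and at least a 1.5-fold change, and log2 CPM used a prior count of 2. Intervals are at 95%. The totals were 14737636 to 18511905 counts, and counting error is widest for Adipoq, Zfp423 and Fabp4, which had from 1 to 114 counts per library. The test was tried on simulated data.

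Alternatives were DESeq2 1.42.0, the likelihood ratio test, other scalings, filters and thresholds, the replicate block, the library set as covariate and leaving out each library. The length of the principal transcript was added later. The members and lists were chosen with earlier results of these data known. Besides the members, the text names genes of the lists that were called in the test or with the set as covariate, examples from the 3 of each list with the largest absolute log2 fold change, and the 3 genes nearest in pattern to each member. Promoter sequences came from RefSeq tables.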

Additional observations from a re-analysis of the deposited data

How the results depend on the processing

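No member was called under any of the alternatives run, with any library left out, with DESeq2 or with the unadjusted threshold. The count of members whose groups do not overlap, 0 with all libraries, lay between 0 and 4 when any 1 library was left out: it was 4 of 9 without RA 3 (Pparg, Ppard, Cebpa and Plin2), where 35.6% of all genes did not overlap, 2 without control 2 (Cebpa and Lpl; 31.4%) and 1 without control 3 (Pparg; 19.3%). With 5 libraries in place of 6, more genes have groups that do not overlap. The log2 fold changes of members kept their sign in 130 recomputed values and turned in 5: Cebpb to 0.083 without RA 2, Fabp4 to -0.12 without control 2 and to -0.065 without RA 3, and Lpl to -0.12 and -0.018 without the same 2 libraries. Over all single libraries left out, Cebpb lay between -0.41 and 0.083, Fabp4 between -0.12 and 0.46 and Lpl between -0.12 and 0.092. The members that kept their sign also moved: Cebpa lay between -1.38 (without RA 3) and -0.27 (without RA 2), Ppard between -0.70 (without RA 3) and -0.21 (without RA 1), Fabp5 between -0.47 (without RA 3) and -0.036 (without control 3), Zfp423 between -0.34 (without control 2) and -0.037 (without control 3), Pparg between -0.36 (without RA 3) and -0.12 (without RA 1), and Plin2 between 0.13 (without RA 1) and 0.36 (without RA 3). The cause was not tested. Among the named related genes, Lipe turned to 0.052 with the set as covariate, to 0.054 without control 1 and to 0.048 without RA 1, and Dgat2 to 0.30 without control 2. Their ranges over single libraries left out were -0.28 to 0.054 and -0.84 to 0.30.

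The count of all genes called, 6 (5 higher, 1 lower), was 122 with DESeq2 (87 and 35), 134 with the likelihood ratio test (93 and 41), 213 with the set as covariate (103 and 110), 20 with no filter (17 and 3) and 727 at an unadjusted p (400 and 327). With library size alone 0 genes were called lower. With one library left out, 0 to 6 genes were called (0 to 6 higher and 0 lower in each). The related genes called, 0 of 118, were 6 with DESeq2, 6 with the likelihood ratio test, 5 with the set as covariate, 1 with no filter and 23 at an unadjusted p. The cause of these differences was not tested. Under other scalings the all-gene median went from -0.018 to at most 0.025.

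The replicate numbers do not pair the samples. After the group means were taken off, same-numbered libraries correlated at -0.51, 0.34 and 0.57, and control 1 and control 2 correlated best with RA 3 and RA 1, not with their own number. With the replicate block, 4 genes were called (4 higher, 0 lower), 0 of them members, and the members' log2 fold changes ran from -0.91 (Cebpa) to 0.22 (Plin2). Depth limits Adipoq (1 to 8 counts per library), Zfp423 (42 to 62) and Fabp4 (63 to 114) most.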

Other observations

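Osteoblast markers, which belong to the other main fate of marrow stromal cells, were tested for 5 of 6 genes and 0 were called (0.0433% of all genes). At an unadjusted p under 0.05, Spp1, which macrophages also express, was higher and Ibsp was lower. Spp1 had 248, 385 and 276 CPM in controls and 439.8, 440.3 and 416 CPM after RA, so the groups did not overlap (log2 fold change 0.51 ± 0.18, edgeR adjusted p = 0.795). Ibsp, a bone matrix protein, had 10.2, 4.31 and 10.7 CPM in controls and 3.89, 4.12 and 1.57 CPM after RA (-1.38 ± 0.48, edgeR adjusted p = 0.795). In library set 1 its log2 difference was -0.10 and in set 2 it was -2.64. Apln, an adipokine, had 1.12, 1.28 and 0.756 CPM in controls and 0.500, 0.444 and 0.546 CPM after RA (-1.08 ± 0.34, edgeR adjusted p = 0.795). Rara, an RA receptor, had 20.9, 15.4 and 17.2 CPM in controls and 12.6, 11.5 and 13.2 CPM after RA (-0.52 ± 0.17, edgeR adjusted p = 0.795).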
